A study of Homo sapiens with 12 samples.

Results

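GSI-resistant MB157R cells in which active NOTCH1 had been put back (MB157R iN1-ICD) were compared with the parental MB157 cells carrying an empty vector (MB157 iEV), to ask which differences of the resistant line remained, and which went past the parental level, once N1-ICD was restored. The comparison covered 17045 of the 29744 entries of the count table, namely those with a mean estimated count of at least 5 over the 6 libraries of these groups. The lowest included mean was 5 and the highest mean left out was 4.996, and 144 included and 161 excluded entries lay within 0.5 counts of the threshold. Of the 12699 entries left out, 8171 had 0 counts in all 6 libraries.

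MB157 is an established triple-negative breast cancer cell line, meaning a line without the hormone receptors and without HER2 amplification, and it already carries a rearranged NOTCH1 that lacks exons of the extracellular part. MB157R was derived from it by 25 weeks in 1 µM of the gamma-secretase inhibitor (GSI) LY3039478. Both lines carried doxycycline-inducible lentiviral vectors, empty in MB157 iEV (labelled Wild type, Dox-EV) and in MB157R iEV (GSI-resistant MB157R, Dox-EV), and coding for a NOTCH1 without its extracellular domain in MB157R iN1-ICD (GSI-resistant MB157R, Dox-NICD). Bulk RNA-seq was available from 3 libraries a group, all collected after 72 h of doxycycline at 1 µg/ml, and MB157R iEV served as the reference for the state before restoration. MB157R is 1 derived line. Whether it was kept as a clone or a pool, and whether GSI was present at harvest, was not stated in the sources used here, so line, drug and vector cannot be told apart in the comparison with MB157 iEV.

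Notch receptors are cut by gamma-secretase after they bind a ligand on a neighbouring cell. The freed intracellular domain (N1-ICD for NOTCH1) enters the nucleus, joins the DNA-bound factor RBPJ and MAML co-activators, and switches on target genes, among them the HES and HEY transcriptional repressors. Inhibitors of gamma-secretase block the release. A NOTCH1 that lacks only the extracellular domain needs no ligand but is still cut by gamma-secretase. SOX2 is a pluripotency factor, and the epithelial-mesenchymal transition (EMT) is the loss of epithelial junction genes with gain of mesenchymal genes.

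The HES and HEY genes that the results turn on differ in how their level changed, and the 250 bases before their start sites are shown here because RBPJ binds DNA in such regions. Sequences are from RefSeq, build GRCh38.p14, 5′ to 3′ on the strand of the gene. Capitals mark TGGGAA or its reverse complement TTCCCA, the core letters of the motif bound by RBPJ, searched on both strands. The HES5 window lies at chr1:2530264-2530513 on the minus strand, HEYL at chr1:39639644-39639893 on the minus strand, HEY2 at chr6:125749382-125749631 on the plus strand, HES1 at chr3:194135898-194136147 on the plus strand and HES4 at chr1:1000098-1000347 on the minus strand.
HES5: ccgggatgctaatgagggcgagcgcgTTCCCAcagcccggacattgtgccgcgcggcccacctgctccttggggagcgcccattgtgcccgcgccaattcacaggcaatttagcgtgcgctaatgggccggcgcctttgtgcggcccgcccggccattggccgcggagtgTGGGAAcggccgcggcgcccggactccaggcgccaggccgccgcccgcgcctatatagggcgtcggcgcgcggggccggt
HEYL: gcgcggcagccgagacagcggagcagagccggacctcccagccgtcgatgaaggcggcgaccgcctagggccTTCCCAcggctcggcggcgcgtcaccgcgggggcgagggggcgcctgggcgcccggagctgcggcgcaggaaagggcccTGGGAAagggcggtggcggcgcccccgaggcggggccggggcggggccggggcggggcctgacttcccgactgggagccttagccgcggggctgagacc
HEY2: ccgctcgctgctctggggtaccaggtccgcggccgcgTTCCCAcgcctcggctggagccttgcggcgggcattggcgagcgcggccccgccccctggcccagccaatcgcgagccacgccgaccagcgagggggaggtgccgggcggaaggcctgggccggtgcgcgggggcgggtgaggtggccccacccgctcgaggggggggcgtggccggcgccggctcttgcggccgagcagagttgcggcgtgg
HES1: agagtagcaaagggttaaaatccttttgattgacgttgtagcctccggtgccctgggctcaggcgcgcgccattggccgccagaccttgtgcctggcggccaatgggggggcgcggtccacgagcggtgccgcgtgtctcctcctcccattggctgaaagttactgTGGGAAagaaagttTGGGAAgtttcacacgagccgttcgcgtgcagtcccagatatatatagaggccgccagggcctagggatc
HES4: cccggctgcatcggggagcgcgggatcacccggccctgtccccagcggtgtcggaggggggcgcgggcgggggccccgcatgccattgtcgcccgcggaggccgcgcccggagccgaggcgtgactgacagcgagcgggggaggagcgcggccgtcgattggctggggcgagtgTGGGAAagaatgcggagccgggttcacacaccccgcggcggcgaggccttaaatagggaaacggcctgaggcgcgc
The letters occurred in all 5 windows, on the strand of the gene at 80 to 75 bases before the start of HES5, at 99 to 94 in HEYL, at 76 to 71 in HES4 and at both 84 to 79 and 70 to 65 in HES1, and on the opposite strand at 213 to 208 in HEY2. HES5 and HEYL held a second match on the opposite strand, at 224 to 219 and at 178 to 173. Among all RefSeq windows of this length 7321 of 35116 (20.8%) held the letters, and 3300 of 16983 windows (19.4%) of the genes compared did, against 6 of the 10 windows found for the HES and HEY list and 17 of the 59 windows (28.8%) of the NOTCH target list described further on. The HES and HEY list is not limited to genes of these names and also holds BHLHE41. A match is a description of the window and shows no binding.

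NOTCH1 itself (chromosome 9, 136494433 to 136546048) was read first, as a check of the labels. It measured 106, 96.1 and 102 CPM (counts relative to the library total, scaled by TMM factors) in the 3 MB157 iEV libraries, 103, 86.8 and 91.1 CPM in MB157R iEV and 2615, 1744 and 2582 CPM in MB157R iN1-ICD. The MB157R iN1-ICD libraries were all far above both empty-vector groups, which overlapped with each other, and replicate 2 was the lowest of the 3. The difference from MB157 iEV was 22.8-fold (log2 4.50 ± 0.13 (SE), adjusted p = 2.5e-13, edgeR quasi-likelihood test with Benjamini-Hochberg adjustment over all 17045 genes, used for every adjusted p given here). Counts of transcripts from the vector and from the endogenous gene are pooled in this value. Restored here thus means expressed from the vector above the parental NOTCH1 level, and genes that returned or overshot are read at that level. The study found N1-ICD protein strongly reduced in MB157R, although NOTCH1 RNA overlapped between the empty-vector groups, so this RNA does not measure N1-ICD.

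Depth was 39608508 to 46527521 estimated counts in MB157R iN1-ICD, 32773820 to 43033713 in MB157 iEV and 40907451 to 49055208 in MB157R iEV, and 3 counts in a library, the limit that a count of 0 allows, came to 0.0631 to 0.0885 CPM. Such limits cover counting error only. The labels do not say that replicates were separate cultures, so a p-value here reflects the scatter of these libraries. In bulk RNA a shift in the share of cells of a kind cannot be told apart from a shift in RNA per cell. Of 12 mammary epithelial markers none was at 0 counts in any group, with a summed level of 3695 to 3785 CPM in MB157 iEV, 6046 to 6241 CPM in MB157R iEV and 12671 to 15326 CPM in MB157R iN1-ICD. The sum includes keratin genes described below. Single markers went both ways, with 7 higher and 5 lower in MB157R iN1-ICD than in MB157 iEV. Among the lower were TRPS1 and TFAP2C (log2 -4.63 to -4.54 and -1.86 to -1.78 over the alternative fits).

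Most differences of the resistant line remained. Between MB157R iN1-ICD and MB157 iEV 14678 genes passed the test (86.1% of those compared), 7392 higher (43.4%) and 7286 lower (42.7%) with N1-ICD, and 14814 (86.9%) had no overlap between the groups. With at least a 2-fold difference there were 4291 higher (25.2%) and 3722 lower (21.8%). The empty-vector lines differed by at least 2-fold in 3911 genes higher in MB157R iEV (22.9%) and 3998 lower (23.5%), called line differences here. Within MB157R, N1-ICD gave 1443 genes at least 2-fold higher (8.47%) and 171 lower (1.00%) than the empty vector, and at any fold 25.8% of genes were higher and 24.0% lower. The count minimum used MB157R iN1-ICD and MB157 iEV, so genes counted only with N1-ICD could enter and genes counted only in MB157R iEV could not. The 1443 and 171 therefore cannot be read as a balance of rises and falls. The 3 comparisons share libraries in pairs, so their values are set side by side and the counts of positions below carry no test.

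Of the 3911 line differences that were higher in MB157R iEV, 3542 (90.6%) were still at least 2-fold higher than MB157 iEV with N1-ICD, 367 (9.38%) came within 2-fold and 2 went past MB157 in the other direction. Of the 3998 that were lower, 3296 (82.4%) stayed at least 2-fold lower, 643 (16.1%) came within 2-fold and 59 (1.48%) rose past MB157 by at least 2-fold. The median log2 difference from MB157 iEV of the 3911 genes was 2.40 without and 2.51 with N1-ICD. For the 3998 genes it was -2.46 without and -1.96 with N1-ICD, beside -0.01 and 0.00 over all genes compared. Differences widened, with a further 2-fold step in the same direction, for 399 of the higher genes and 20 of the lower genes. A further 348 genes higher and 23 lower than both empty-vector groups had no such called 2-fold line difference, and are called new differences. In both directions together 6838 of the 7909 line differences (86.5%) remained. The count minimum was set on MB157R iN1-ICD and MB157 iEV, so genes high in MB157R iEV only were left out. This limits how many higher genes could be seen to come back. Without the minimum 7374 remained and 1253 came within 2-fold, and genes at 0 counts in both of these groups still stayed out.

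**Figure D1:**
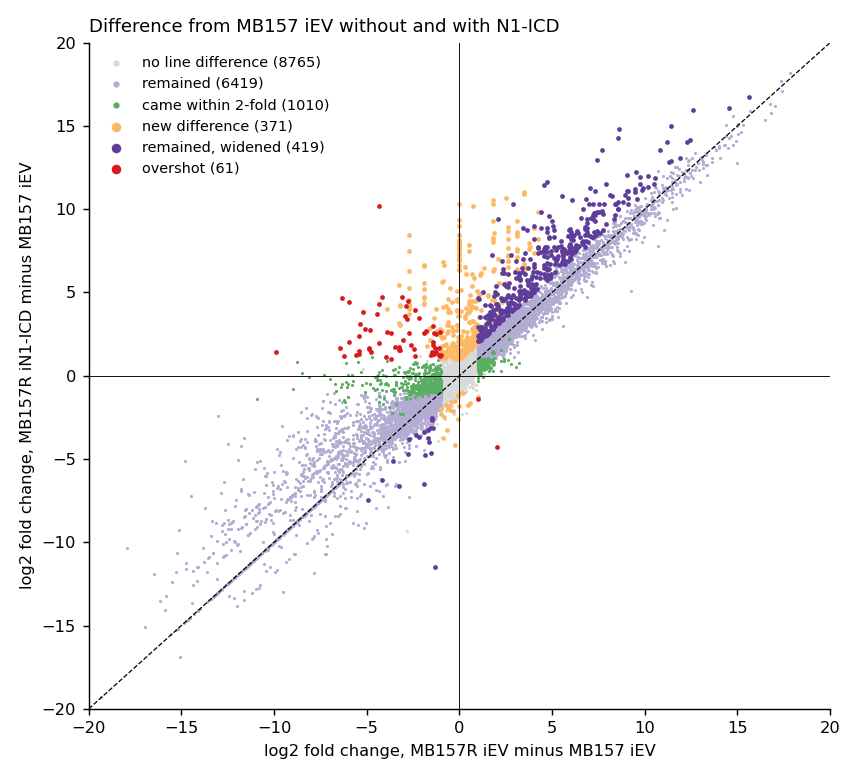
Each point is 1 of 17045 genes, with the log2 fold change of MB157R iEV over MB157 iEV on the x axis and of MB157R iN1-ICD over MB157 iEV on the y axis. Both axes share the MB157 iEV libraries, the dashed line marks equal differences, and colours give the 6838 line differences that remained (419 of them widened), 1010 that came within 2-fold, 61 that overshot and 371 new differences. Many fitted values beyond about 10 come from groups at or near 0 counts and depend on the prior count.

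The direct HES and HEY targets split into genes that came back near the parental level, genes that passed it and genes that stayed far below it. HES1 had 77.1 ± 1.68 CPM (SD, n = 3, as for all such values) in MB157 iEV, 45.8 ± 3.14 CPM in MB157R iEV and 68.9 ± 1.60 CPM in MB157R iN1-ICD, a difference from MB157 iEV of -0.17 in log2 (adjusted p = 0.0016). HES4 measured 67.6, 59.6 and 66.3 CPM with N1-ICD against 33.6, 36.8 and 26.2 CPM in MB157 iEV, with no overlap and 2.002-fold higher (adjusted p = 2.0e-07). HES5 was at 3.24, 2.66 and 2.74 CPM in MB157 iEV, at 0 counts in all 3 MB157R iEV libraries and at 8.36, 6.46 and 8.90 CPM with N1-ICD. It thus went from absent counts to 2.74-fold above MB157 iEV (log2 1.45 ± 0.15 (SE), adjusted p = 4.5e-07), and to at least 346-fold higher than MB157R iEV when 3 counts over the group stand for the 0.

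HEYL and HEY2 also started from 0 counts in MB157R iEV but stayed well under the parental level. HEYL had 18.2, 16.5 and 17.3 CPM in MB157 iEV and 0.963, 0.897 and 1.19 CPM with N1-ICD, 17.0-fold lower (log2 -4.09 ± 0.12 (SE), adjusted p = 2.6e-13) although at least 44.4-fold higher than MB157R iEV. HEY2 had 9.73, 10.7 and 11.4 CPM and 0.613, 0.499 and 0.631 CPM, 18.3-fold lower (log2 -4.19 ± 0.15 (SE), adjusted p = 4.2e-12) and at least 25.4-fold higher than MB157R iEV. For both genes the 3 groups did not overlap. HES2 moved the other way, from 5.92 CPM in MB157 iEV to 20.8 CPM in MB157R iEV and 81.2 CPM with N1-ICD, 13.7-fold above the parent. The HES and HEY list also held BHLHE41, with 0.499, 10.5 and 13.1 CPM in MB157 iEV, MB157R iEV and MB157R iN1-ICD. Of the 11 genes of this list measured 7 were higher and 3 lower than MB157 iEV (43.4% and 42.7% over all genes). Their median log2 difference was 0.92 with N1-ICD and -0.35 without it.

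**Figure D2:**
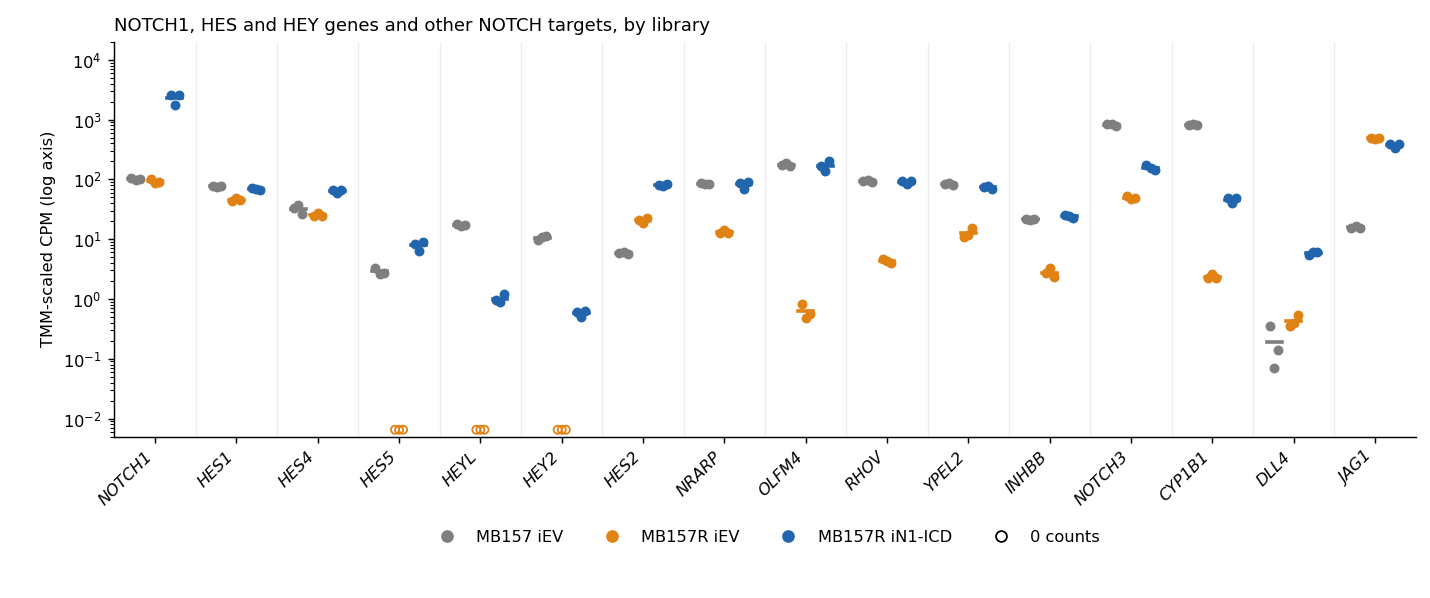
Points are TMM-scaled CPM of single libraries on a log axis, 3 for each of MB157 iEV (grey), MB157R iEV (orange) and MB157R iN1-ICD (blue), bars are group means and open circles on the bottom mark 0 counts. NRARP, OLFM4, RHOV, YPEL2 and INHBB came within 0.32 in log2 of MB157 iEV with N1-ICD, HEYL, HEY2, NOTCH3 and CYP1B1 between the empty-vector groups, and HES5 and HES2 above both.

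A small group of strongly lowered genes returned close to the parent. Of 410 genes that were at least 4-fold lower in MB157R iEV with a mean of at least 10 CPM over the 9 libraries, 8 were not called, or under 0.32 in absolute log2 difference, against MB157 iEV with N1-ICD. Of 1102 genes at least 4-fold higher, 0 were. The count minimum was set on MB157R iN1-ICD and MB157 iEV alone. Genes high only in MB157R iEV that fell back to near 0 counts could therefore not be among them. OLFM4, a secreted glycoprotein, measured 178, 188 and 166 CPM in MB157 iEV, 0.840, 0.473 and 0.568 CPM in MB157R iEV and 168, 136 and 200.4 CPM with N1-ICD. The N1-ICD libraries spanned the parental values, the difference was -0.09 ± 0.10 (SE) in log2 (adjusted p = 0.41), and N1-ICD had raised the gene 268-fold over MB157R iEV (adjusted p = 7.9e-11). Without MB157R iN1-ICD replicate 3 the difference from MB157 iEV became -0.25 with an adjusted p of 0.0084.

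NRARP, a feedback inhibitor of Notch signalling, had 85.5, 85.2 and 82.9 CPM in MB157 iEV, 12.6, 14.2 and 12.8 CPM in MB157R iEV and 88.4, 69.2 and 92.1 CPM with N1-ICD (log2 -0.03 ± 0.08 (SE), adjusted p = 0.71 against MB157 iEV). RHOV had 94.3, 4.28 and 91.2 CPM (adjusted p = 0.35, and 0.030 at a log2 of -0.14 among the genes the authors kept). For both genes the 2 outer groups overlapped and MB157R iEV stood apart. YPEL2 with 83.2, 12.8 and 74.6 CPM and INHBB, an activin subunit, with 21.4, 2.77 and 24.1 CPM passed the test at log2 differences of -0.17 (adjusted p = 0.0067) and 0.16 (adjusted p = 0.033). The call for INHBB was lost without either of MB157 iEV replicates 1 and 2 or MB157R iN1-ICD replicates 1 and 2, with adjusted p-values of 0.064, 0.12, 0.21 and 0.085. The other 3 genes, named after their values were seen, were MYEOV (30.2, 5.77 and 31.4 CPM), RAB11FIP1 (287, 62.8 and 329.7 CPM) and THEMIS2 (35.4, 5.79 and 32.5 CPM).

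Of these 8 genes 7, all but THEMIS2, stood on the list of 77 NOTCH target genes that the study used. That list was chosen in part on the MB157R iN1-ICD and MB157R iEV libraries, so its rise within MB157R (76 of 77 genes higher) is not independent evidence. The same holds for its overlap with the 8 genes and for the rises and widening counted below, which that choice favours. Against MB157 iEV 52 of the 77 were higher, 18 lower and 7 not called, beside 43.4% higher and 42.7% lower over all genes. The median log2 difference of the list was 1.08 with N1-ICD and -0.50 without it. All 33 members that had been at least 2-fold lower in MB157R iEV were higher with N1-ICD than without it. Of them 19 came within 2-fold of MB157 iEV, 11 remained at least 2-fold lower and 3 overshot. The 26 members that were already higher in MB157R iEV all remained higher, and 23 of them widened.

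Members that stayed low included CYP1B1 and NOTCH3. CYP1B1, a cytochrome P450 of steroid and xenobiotic metabolism, measured 819, 839 and 802 CPM in MB157 iEV, 2.26, 2.64 and 2.23 CPM in MB157R iEV and 48.4, 40.5 and 48.1 CPM with N1-ICD, still 18.0-fold lower than the parent (log2 -4.18 ± 0.06 (SE), adjusted p = 2.7e-16). NOTCH3, a receptor gene, recovered from 49.3 CPM to 177, 155 and 142 CPM against 849, 835 and 795 CPM in MB157 iEV, 5.23-fold lower. Members that widened included IGFBP3, an insulin-like growth factor binding protein, with 5.43, 5.39 and 5.25 CPM in MB157 iEV, 64.0, 60.8 and 78.9 CPM in MB157R iEV and 2249, 2299 and 2329 CPM with N1-ICD (428-fold above the parent). DUSP5, a phosphatase acting on ERK, rose from 1.27 to 31.0 and 268 CPM (211-fold). PAPPA, a protease that cleaves IGF-binding proteins, had 0 counts in MB157 iEV, 14.7 CPM in MB157R iEV and 50.9 CPM with N1-ICD (at least 2039-fold).

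MYC and CCND1, a transcription factor and a cyclin whose genes the study found lowered by short-term GSI in MB157, ended above MB157 iEV. MYC measured 309 ± 9.43, 219 ± 15.2 and 359.9 ± 11.3 CPM in MB157 iEV, MB157R iEV and MB157R iN1-ICD, so a gene lower in the resistant line ended 1.16-fold higher than the parent (adjusted p = 2.0e-04). CCND1 measured 778 ± 32.0, 1159 ± 38.8 and 1291 ± 66.9 CPM, 1.66-fold higher than the parent (adjusted p = 2.7e-09).

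Ligands, receptors and modifiers of the pathway differed from the parent in both directions. Of 26 measured 13 were higher and 9 lower than MB157 iEV, shares near those of all genes (43.4% and 42.7%), and 9 of 12 line differences remained (86.5% over all genes), with a median log2 difference of 0.23 beside -0.03 without N1-ICD. The ligand gene JAG1 had 15.3, 16.4 and 15.6 CPM in MB157 iEV, 491, 479 and 497 CPM in MB157R iEV and 395, 336 and 384 CPM with N1-ICD, 23.6-fold above the parent with no overlap. The ligand gene DLL4 went from 21 counts over the MB157 iEV libraries to 5.39, 6.11 and 6.03 CPM with N1-ICD (31.0-fold higher), whereas the inhibitory ligand gene DLL3 had 4.01 CPM in MB157 iEV and 0.122 CPM with N1-ICD (32.8-fold lower). Among genes named after their values were seen, LFNG, a glycosyltransferase that modifies Notch receptors, fell from 129 CPM to 21.2 CPM but stayed 7.93-fold above the 2.68 CPM of MB157 iEV, and DLL1 fell from 47.8 CPM to 15.1 CPM against 2.17 CPM in the parent.

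Genes for gamma-secretase and the RBPJ complex gave counts near the background. Of 17 measured 9 were lower and 5 higher than MB157 iEV, beside 42.7% and 43.4% of all genes (median log2 -0.29 with and -0.23 without N1-ICD), and within MB157R 5 were lower and 1 higher with N1-ICD. PSENEN, a gamma-secretase subunit, had 69.9, 70.01 and 71.3 CPM in MB157 iEV, 23.3, 22.0 and 21.6 CPM in MB157R iEV and 19.9, 16.2 and 17.2 CPM with N1-ICD, 3.97-fold lower than the parent. APH1A, another subunit, was 2.11-fold lower. ADAM10, the protease of the first cut, was 3.33-fold higher and the co-activator gene MAML2 was 3.65-fold higher than in MB157 iEV.

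SOX2 fell with N1-ICD but did not reach the parental level. It measured 6.34, 7.43 and 6.74 CPM in MB157 iEV, 63.3, 66.6 and 54.0 CPM in MB157R iEV and 19.2, 19.8 and 17.2 CPM in MB157R iN1-ICD, so the restored libraries lay between both groups without overlap. SOX2 was 3.27-fold lower than in MB157R iEV (adjusted p = 1.6e-08) and still 2.74-fold higher than in MB157 iEV (log2 1.44 ± 0.09 (SE), adjusted p = 1.1e-09). Of 15 SOX genes measured 7 were higher and 6 lower than the parent, shares near those of all genes (43.4% and 42.7%). Of their 14 line differences 12 remained, a share near the 86.5% of all line differences. SOX7 had 1.91, 77.0 and 51.0 CPM, and SOX11 had 64.5 CPM in MB157 iEV against 1 count over the 3 libraries with N1-ICD. SOX9, named after its values were seen, returned to 486 ± 10.1 CPM from 183 ± 1.504 CPM, beside 465 ± 11.7 CPM in MB157 iEV (adjusted p = 0.18).

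Several mesenchymal genes remained far above the parent. CDH2, which codes for N-cadherin, had 1.36, 1.68 and 1.16 CPM in MB157 iEV, 340.3, 353 and 345 CPM in MB157R iEV and 225, 236 and 220.4 CPM with N1-ICD, 1.52-fold lower than MB157R iEV and 163-fold above MB157 iEV (log2 7.33 ± 0.08 (SE), adjusted p = 1.5e-17). SNAI2, an EMT transcription factor, did not pass the test between the MB157R groups, with 50.9 ± 2.26 and 51.8 ± 1.67 CPM (adjusted p = 0.62) against 2.69 ± 0.161 CPM in the parent. TWIST1 was 3.43-fold higher than MB157 iEV, with 24.02, 24.3 and 23.8 CPM, and ZEB2 had 14.3, 14.1 and 13.5 CPM against 1 count in the 3 MB157 iEV libraries. Both were higher with N1-ICD than in MB157R iEV, which had 21.5 CPM of TWIST1 and 7.97 CPM of ZEB2 (1.12-fold and 1.75-fold, adjusted p = 0.019 and 5.2e-06). VIM, the intermediate filament gene vimentin, ended below both groups, with 607, 625 and 619.8 CPM in MB157 iEV, 643, 669.6 and 636 CPM in MB157R iEV and 472, 440.1 and 481 CPM with N1-ICD, 1.33-fold lower than the parent (adjusted p = 2.3e-07).

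Over 46 EMT and mesenchymal genes 32 were higher and 12 lower than MB157 iEV (43.4% and 42.7% over all genes) and the median log2 difference was 2.20 with and 2.03 without N1-ICD. Of the line differences 26 of 27 higher and 8 of 11 lower remained, beside 90.6% and 82.4% over all genes. MMP14, a membrane-bound matrix metalloproteinase, had 0.525, 851 and 765 CPM in MB157 iEV, MB157R iEV and MB157R iN1-ICD. AXL, a receptor tyrosine kinase, had 1 count over the MB157 iEV libraries, 232 CPM in MB157R iEV and 169.8 CPM with N1-ICD. TWIST2 went in the opposite direction, with 13.9, 13.3 and 13.4 CPM in MB157 iEV and 0 counts in all 6 MB157R libraries (at least 579-fold lower).

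Some stem cell surface and aldehyde dehydrogenase genes differed strongly from the parent with N1-ICD, in both directions. ITGA6, an integrin subunit, fell from 2035 ± 159 CPM in MB157R iEV to 1103 ± 36.8 CPM, 47.1-fold above the 23.5 ± 1.58 CPM of MB157 iEV. ALDH1A3, an enzyme of retinoic acid synthesis, rose further, from 18.97 ± 1.06 CPM in MB157 iEV and 2468 ± 264 CPM in MB157R iEV to 3369 ± 125 CPM, 178-fold above the parent. CD44 measured 493 ± 13.9, 796 ± 27.9 and 686 ± 9.97 CPM, 1.39-fold above the parent. PROM1, which codes for CD133, had 431, 419 and 415 CPM in MB157 iEV and 11 counts over the 3 libraries with N1-ICD (4803-fold lower), and the receptor gene KIT had 226 and 4.19 CPM (54.0-fold lower). Of 21 stem cell surface markers 12 were higher and 9 lower, with 13 of 14 line differences remaining, and of 19 aldehyde dehydrogenase genes 7 were higher and 11 lower, with 10 of 12 remaining. Over all genes 43.4% were higher and 42.7% lower, and 86.5% of line differences remained.

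Epithelial genes moved part of the way back, with exceptions on either side. CDH1, which codes for E-cadherin, had 557, 549.6 and 558 CPM in MB157 iEV, 320.3, 308 and 304 CPM in MB157R iEV and 399, 355 and 393 CPM with N1-ICD, 1.45-fold lower than the parent (adjusted p = 3.4e-08). The claudin gene CLDN7 came to 268 ± 10.6 CPM from 195 ± 2.06 CPM, against 303 ± 6.89 CPM in MB157 iEV. CLDN4 rose past it, with 273, 276 and 267, 294, 291 and 268 and 536, 495 and 503 CPM in the 3 groups (1.88-fold above the parent). CLDN3 stayed lost, with 121, 122 and 104 CPM in MB157 iEV, 0 counts in MB157R iEV and 9 counts over the 3 libraries with N1-ICD (1629-fold lower than the parent). The mucin gene MUC1 had 10.5, 1.01 and 2.64 CPM. Of 49 epithelial junction and identity genes 29 were lower and 17 higher than MB157 iEV (42.7% and 43.4% over all genes). Their median log2 difference was -0.31 with and -0.70 without N1-ICD. Of their 19 members that were lower in MB157R iEV 13 remained lower, 4 came within 2-fold and 2 overshot. Over all genes these shares were 82.4%, 16.1% and 1.48%.

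Keratins held the clearest cases of genes that went past the parent. KRT14, a basal keratin, had 53.1, 57.6 and 58.6 CPM in MB157 iEV, 7.36, 6.90 and 7.77 CPM in MB157R iEV and 692, 623 and 743 CPM with N1-ICD. It was the lowest in every MB157R iEV library and the highest in every N1-ICD library, 12.2-fold above the parent (log2 3.59 ± 0.06 (SE), adjusted p = 1.8e-15) and 93.5-fold above MB157R iEV. KRT16, induced in activated epidermis, had 41.6, 44.7 and 42.9, 9.39, 9.63 and 9.45 and 485, 441 and 485 CPM (10.9-fold above the parent). KRT17 was already higher in the resistant line and widened, with 17.0, 17.9 and 16.8 CPM in MB157 iEV, 493, 475 and 491 CPM in MB157R iEV and 5883, 4766 and 6029 CPM with N1-ICD (322-fold above the parent). KRT6A had 788, 596 and 793 CPM with N1-ICD (513-fold) and KRT75 234, 162 and 239.5 CPM (658-fold), and in both, as in KRT14, KRT17 and NOTCH1, replicate 2 was the lowest of the N1-ICD libraries without overlapping either other group.

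Of 25 keratin genes measured 21 were higher and 3 lower than MB157 iEV (43.4% and 42.7% over all genes). The median log2 difference was 2.01 with and -0.70 without N1-ICD. Of the 11 that were at least 2-fold lower in MB157R iEV, 6 overshot, 2 came within 2-fold and 3 remained lower. Over all genes these shares were 1.48%, 16.1% and 82.4%. All 11 that were higher in MB157R iEV stayed above MB157 iEV, 9 by at least 2-fold and 6 of these widened. The 6 that overshot were KRT14, KRT16 and, named after their values were seen, KRT23 (57.9, 0.662 and 186 CPM), KRT81, KRT9 and KRT6C. KRT5, KRT6A, KRT6B, KRT6C and KRT75 stand on the NOTCH target list chosen in part on these libraries, whereas KRT14, KRT16 and KRT17 do not. Their rises, and the keratin counts that hold them, are therefore not fully independent evidence. A keratin low in both empty-vector groups could also pass the count minimum through the N1-ICD libraries alone. Estimated counts can be split between near-identical copies such as KRT6A, KRT6B and KRT6C or between the similar KRT14, KRT16 and KRT17, so single values of these genes are less certain than their sum. PKP1, a desmosomal plakophilin, overshot with 144, 141 and 157, 69.1, 65.3 and 75.1 and 527, 401 and 509 CPM (3.25-fold above the parent).

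Several cornified envelope genes, which build the outer layer of squamous epithelium, rose from 0 or a few counts in the parent. IVL, coding for involucrin, had 0 counts in MB157 iEV, 0.956, 1.02 and 1.56 CPM in MB157R iEV and 86.9, 76.2 and 101 CPM with N1-ICD (at least 3527-fold above the parent). SPRR2D had 0 counts, 8.23 CPM and 97.7 CPM, and PI3, the elastase inhibitor elafin, went from 3 counts over MB157 iEV to 10.6 CPM and 569, 501 and 627 CPM. PI3 stands on the NOTCH target list chosen in part on these libraries, so its rise is not independent evidence. As with keratins, a gene low in both empty-vector groups could pass the count minimum through the N1-ICD libraries alone. The kallikrein proteases KLK7 and KLK8, which act in skin shedding, had 2.91 and 5.77 CPM in MB157 iEV and 0 and 1 counts over the 3 N1-ICD libraries. Of 32 genes of this list 20 were higher and 10 lower than MB157 iEV (43.4% and 42.7% over all genes). The median log2 difference was 2.40 with and 0.08 without N1-ICD, and 10 of 28 line differences widened (5.30% over all genes).

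**Figure D3:**
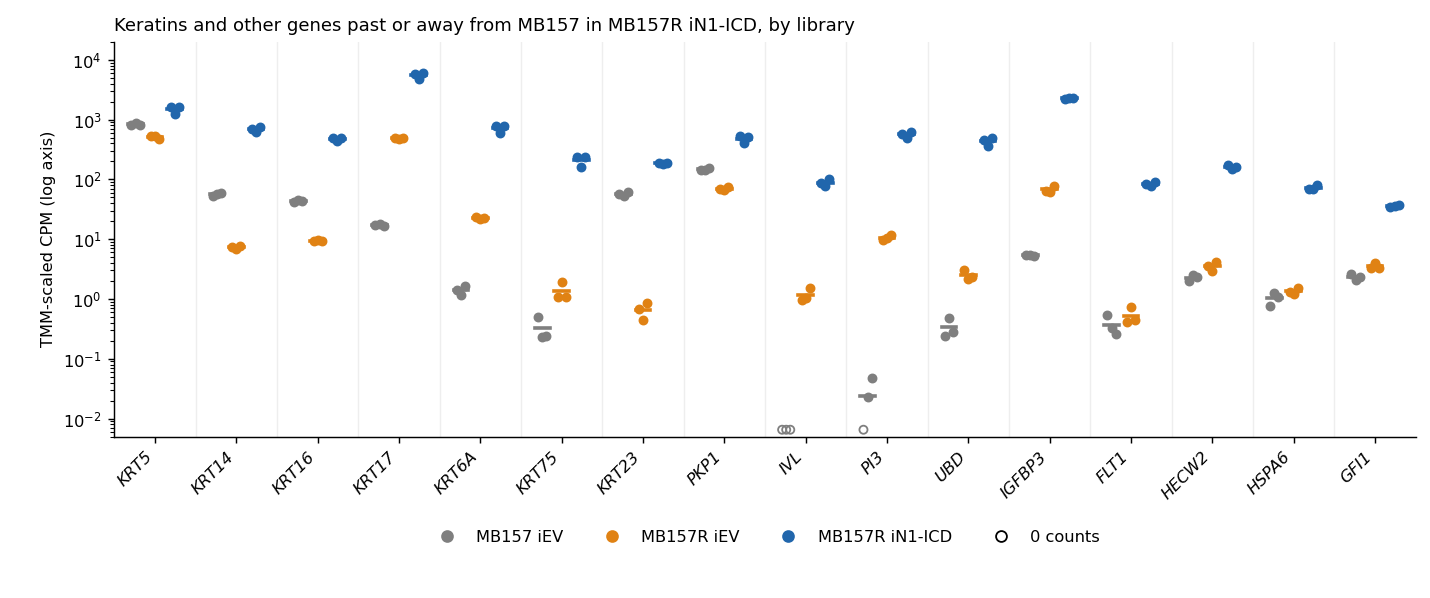
Points are TMM-scaled CPM of single libraries on a log axis, 3 for each of MB157 iEV (grey), MB157R iEV (orange) and MB157R iN1-ICD (blue), with bars at group means and open circles on the bottom for 0 counts. In every gene shown the 3 N1-ICD libraries were above all MB157 iEV libraries, and KRT5, KRT14, KRT16, KRT23 and PKP1 were lowest in MB157R iEV. KRT5, KRT6A, KRT75, PI3, IGFBP3 and FLT1 stand on the NOTCH target list chosen in part on these libraries.

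Other genes that went past MB157 were few. Of the 61 overshot genes 59 were higher and 2 lower with N1-ICD than in MB157 iEV, 15 reached a group mean of 10 CPM, and 18 had 0 counts in MB157R iEV. FDCSP, a small secreted peptide, went from 7 counts over MB157 iEV and 0 in MB157R iEV to 74.2, 57.6 and 85.9 CPM. SLC46A3, a lysosomal transporter, had 5.81, 5.78 and 5.60, 2.64, 2.89 and 2.82 and 35.3, 32.7 and 39.9 CPM (6.28-fold above the parent). Among line differences that widened, UBD, a ubiquitin-like modifier, had 0.334 CPM in MB157 iEV, 2.53 CPM in MB157R iEV and 459, 362 and 485 CPM with N1-ICD (1304-fold). PCSK1N widened downward, with 86.6, 16.9 and 7.46 CPM.

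New differences, which were not called at 2-fold between the empty-vector lines, included FLT1, a receptor gene of blood vessel growth. It stands on the NOTCH target list chosen in part on these libraries, so its rise within MB157R is not independent evidence. FLT1, which codes for VEGF receptor 1, had 0.531, 0.321 and 0.260 CPM in MB157 iEV, 0.420, 0.722 and 0.441 CPM in MB157R iEV and 84.3, 78.7 and 90.2 CPM with N1-ICD, 228-fold above the parent (log2 7.85 ± 0.12 (SE), adjusted p = 4.5e-16) with the empty-vector groups overlapping. KDR, coding for VEGF receptor 2, had 23.7, 21.6 and 20.4 CPM with N1-ICD and was 17.3-fold above MB157 iEV, and the angiopoietin receptor gene TEK had 19.7, 17.8 and 18.9 CPM against 1 count over the parental libraries. These are differences from the parent, given without regard to whether the empty-vector lines already differed. FLT4, coding for VEGF receptor 3, went the other way, from 32.7 CPM in MB157 iEV to 5 counts over the N1-ICD libraries. Of 10 endothelial markers, KDR and TEK among them, 8 were measured and 3 were at 0 counts in MB157 iEV, their summed level was 37.1 to 38.6 CPM in MB157 iEV, 7.13 to 7.42 CPM in MB157R iEV and 48.8 to 55.6 CPM with N1-ICD, and the defining marker PECAM1 was at 0.284 CPM with N1-ICD and CDH5 at 0.983 CPM. Of the 8 measured, 3 were already line differences higher in MB157R iEV, and all 3 remained. The part of these markers in the FLT1 result was not tested.

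Further new differences were HECW2, a ubiquitin ligase, with 2.26, 3.57 and 161 CPM (71.2-fold above the parent), HSPA6, an inducible heat shock protein with close copies, with 1.03, 1.35 and 72.8 CPM, and GFI1, a transcriptional repressor, with 2.34, 3.52 and 36.2 CPM. New losses were smaller. RBM3, a cold-induced RNA-binding protein, had 322, 327 and 331 CPM in MB157 iEV, 187, 159 and 155 CPM in MB157R iEV and 86.7, 61.7 and 94.5 CPM with N1-ICD (4.04-fold lower than the parent), and the galectin gene LGALS1 had 357, 220.0 and 109 CPM (3.29-fold lower). The groups did not overlap for either gene. Of the 371 new differences 61 higher and 7 lower reached a group mean of 10 CPM.

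The largest differences from MB157 iEV were present or absent calls that N1-ICD left in place. B2M, the light chain of MHC class I, had 0 counts in MB157 iEV and 847, 943 and 865 CPM with N1-ICD, at least 35258-fold above the parent. The cytokine gene IL1A (653 CPM) and the ligand gene WNT7A (429 CPM) had 0 counts in MB157 iEV as well. In the other direction PEG3, an imprinted zinc finger gene, had 1969, 1985 and 1948 CPM in MB157 iEV and 0 counts in all 6 MB157R libraries, and LRRN2, TSPYL5 and IRX5, with 120.5, 112 and 90.2 CPM in MB157 iEV, were likewise at 0. There were 77 genes at 0 counts in MB157 iEV with at least 10 CPM in MB157R iN1-ICD, and 67 the reverse.

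No gene silent in MB157R iEV with at least 10 CPM in MB157 iEV came back to the parental level with N1-ICD. Among genes under 10 CPM in MB157 iEV some went past the parent, since 18 overshot genes had 0 counts in MB157R iEV, among them HES5. FDCSP was also counted there, but with 7 counts over MB157 iEV its line difference lay near the counting limit (adjusted p = 0.031). Of 116 genes with 0 counts in MB157R iEV and at least 10 CPM in MB157 iEV, 58 had at least 1 count with N1-ICD and 3 reached 1 CPM. These were HEYL and, named after their values were seen, NUPR1 (85.7 CPM in MB157 iEV and 2.47 CPM with N1-ICD) and SULT1A3 (25.5 and 4.56 CPM), a gene with a near-identical copy. All 3 stayed at least 5-fold below MB157 iEV.

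Most measured genes of the lists that act in inflammation, and most measured matrix metalloproteinases, were higher than in the parent. These lists were written with earlier results of these data known. The list counts against MB157 iEV given here stand beside 43.4% higher and 42.7% lower over all genes. Of 46 NF-kB targets, interleukin-1 family members and chemokines 44 were higher and 1 lower than MB157 iEV, with a median log2 difference of 5.37 with and 3.94 without N1-ICD (4.86 and 3.19 with genes at 0 counts set to their bound). CSF2, a growth factor of myeloid cells, had 0 counts in MB157 iEV, 147, 153 and 153 CPM in MB157R iEV and 342, 343 and 317 CPM with N1-ICD. Of 41 interferon-stimulated genes 34 were higher and 4 lower, with a median of 2.65 beside 1.92, among them IFIT3 with 0.0878, 5.17 and 16.6 CPM. Of 22 matrix metalloproteinases and their inhibitors 18 were higher and 2 lower, with a median of 4.61 beside 2.19, although within MB157R 8 rose and 8 fell with N1-ICD (median log2 0.10). In MMP10 the level fell back, from 97.9 CPM in MB157R iEV to 21.6 CPM, but MB157 iEV had 0 counts.

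HOX genes, which set position along the body axis, differed between the lines in both vectors, and 0 of 37 moved by 2-fold with N1-ICD within MB157R. Over all genes 8.47% rose and 1.00% fell that far. Of the 37 measured 27 were higher and 10 lower than MB157 iEV, and all 37 were line differences. Of these 36 remained (86.5% over all genes), with a median log2 of 3.19 with and 3.44 without N1-ICD. The counts higher and lower in this paragraph stand beside 43.4% and 42.7% over all genes. HOXB3 had 0 counts in MB157 iEV, 76.2 CPM in MB157R iEV and 66.1 CPM with N1-ICD, and HOXC10 had 32.4 CPM in MB157 iEV and 0 counts in all 6 MB157R libraries. Basal and myoepithelial genes gave 30 higher and 6 lower of 37 (median 2.95 with and 2.99 without N1-ICD, the latter 2.49 with genes at 0 counts at their bound), and luminal genes 17 higher and 7 lower of 26 (1.73 and 0.78, the latter 0.46 at the bound). TP63, the basal epithelial transcription factor, had 6 counts over MB157 iEV, 239 CPM in MB157R iEV and 174 CPM with N1-ICD.

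Mitosis genes were lower by small folds. Of 46 measured 32 were lower and 10 higher than MB157 iEV, beside 42.7% and 43.4% of all genes. Their median log2 difference was -0.42 with and -0.15 without N1-ICD. Within MB157R 41 were lower with N1-ICD and 0 higher, beside 24.0% and 25.8% of all genes. BIRC5, an inhibitor of apoptosis active in mitosis, had 252, 263 and 253 CPM in MB157 iEV, 121, 124 and 126 CPM in MB157R iEV and 88.2, 78.7 and 83.3 CPM with N1-ICD, 3.06-fold lower than the parent (adjusted p = 1.9e-13). AURKA, a mitotic kinase, had 219.9, 92.4 and 72.7 CPM (3.02-fold lower). The groups were apart in every library for both genes. CDKN1A, coding for the cell cycle inhibitor p21, had 16.7, 304 and 442 CPM (26.5-fold above the parent), while DNA replication genes had 26 higher and 11 lower of 42.

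**Figure D4:**
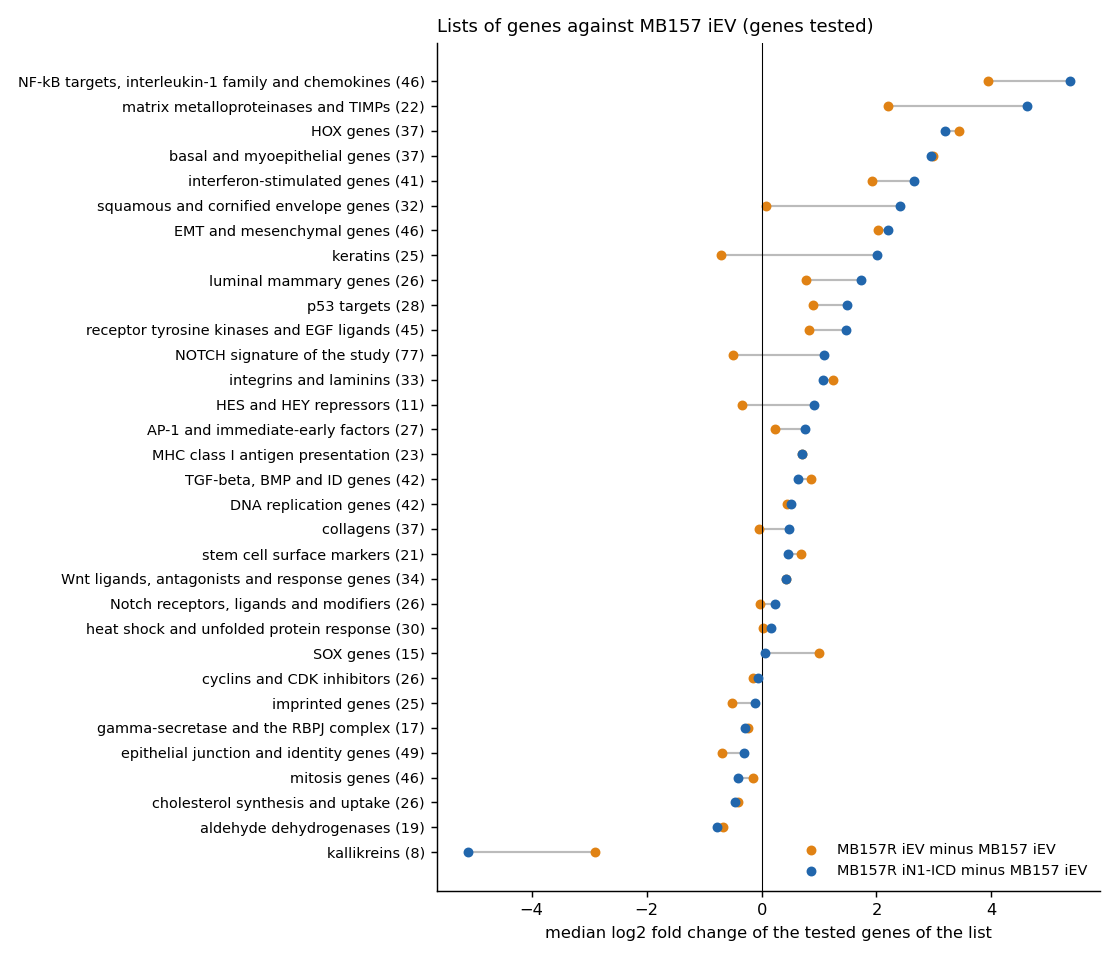
For each list other than the cell type markers the median log2 fold change over MB157 iEV of its measured genes (their number in brackets) is plotted on the x axis for MB157R iEV (orange) and MB157R iN1-ICD (blue), which share the MB157 iEV libraries. The medians of keratins (-0.70 and 2.01), squamous genes (0.08 and 2.40) and the NOTCH signature (-0.50 and 1.08) lie furthest apart together with matrix metalloproteinases and kallikreins, and those of basal genes, HOX genes and the gamma-secretase group lie close together. In the direct comparison within MB157R the median log2 difference was 0.10 for matrix metalloproteinases and 0 for the 8 kallikreins. The NOTCH signature, which holds some of the keratins, was chosen in part on the MB157R libraries.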

How the data were processed

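Reads were mapped and quantified by the authors with STAR and Salmon on hg38, and the authors deposited estimated counts per gene, 88.0% of them whole to within 1e-06, with no normalization. The gene annotation was not given in the sources used here. The authors also deposited tables of log2 CPM, which they made with TMM (edgeR 3.42.4) and voom (limma 3.56.2) for filtered genes within each pair of groups, and these gave only the alternative gene filter.

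Counts were rounded and genes with a mean deposited count of at least 5 over MB157R iN1-ICD and MB157 iEV were fitted with edgeR 4.0.16 in R 4.3.3 (TMM factors, quasi-likelihood test, Benjamini-Hochberg adjusted p under 0.05). The same 17045 genes were fitted for MB157R iEV against MB157 iEV and for MB157R iN1-ICD against MB157R iEV. A fold is the ratio of mean CPM; against a group at 0 counts it is a lower bound with 3 counts over the group. Alternatives were RLE factors, library totals, no filter, the authors' genes, limma-voom (limma 3.58.1), DESeq2 1.42.0, a joint model of the 12 libraries, the replicate number as a block, and each library left out in turn. The fitting was tested on simulated data. The SOX2-induced group served only in the 12-library fit. Entries that repeat a name (61) stayed in the fits and are not named.

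The members and gene lists were chosen with earlier results of these data known. Genes were named by a rule: genes the study named, the 5 largest rises and falls overall and among overshot, widened, new and returned genes (mean CPM 10 or more), and the 2 largest of each direction in each list at 1 CPM or more; genes added after their values were seen are said to be so. Other genes given with the cell type markers are members of those lists. Of the genes compared 14764 had a RefSeq position.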

Additional observations from a re-analysis of the deposited data

How the results depend on the processing

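No call reversed. Restricting the test to the 10855 genes that the authors kept in both filtered tables, which by construction tests fewer genes, lowered the counts: 9719 genes differed between MB157R iN1-ICD and MB157 iEV (4768 lower) and 3921 by at least 2-fold, 9735 and 3906 between the empty-vector lines, and 415 by at least 2-fold within MB157R, while 3359 line differences remained, 126 widened, 13 overshot, 534 came within 2-fold and 61 were new. The other 210 of 221 alternative counts were within 1.5 times the reported ones. So were 648 of 663 counts of called genes in lists, and the other 15 all fell with the authors' genes, among them keratins to 15, squamous genes to 13, interferon-stimulated genes to 25, collagens to 18, receptor kinases to 28 and Wnt genes to 14. Differences between MB157R iN1-ICD and MB157 iEV came to 14369 genes with DESeq2, 14727 with limma-voom and 15487 without a filter, and leaving out 1 library gave 14284 to 14678, with 51 to 59 overshot genes. Library totals shifted the log2 difference of the median gene by -0.02. Of the single genes, 3050 of 3060 alternatives kept the direction and the side of the threshold; the exceptions were INHBB (also not called with library totals, the authors' genes, DESeq2 and the 12-library fit, adjusted p = 0.067, 0.24, 0.063 and 0.065), RHOV and OLFM4. With the replicate number as a block 14455 genes were called, 7957 by at least 2-fold. Same-numbered libraries of the 2 groups deviated together with correlations of -0.15, -0.08 and 0.01 over 13214 genes, so the numbers were not treated as pairs. Depth limited values near 0.0631 to 0.0885 CPM.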

Other observations

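Genes of sterol metabolism, which the text above does not describe, were mostly lower with N1-ICD than in the parent. Of 26 cholesterol synthesis and uptake genes 18 were lower and 7 higher than MB157 iEV (42.7% and 43.4% of all genes were), with a median log2 difference of -0.46 with and -0.40 without N1-ICD. Of their line differences 5 of 6 lower and 5 of 5 higher remained. SREBF1, a transcription factor of lipid synthesis, had 239, 99.1 and 63.6 CPM and was lowest in every N1-ICD library. Stress genes split. HSPA1A, an inducible heat shock protein with a near-identical copy, had 653, 602 and 696 CPM in MB157 iEV, 7.58 CPM in MB157R iEV and 14.6, 10.7 and 14.3 CPM with N1-ICD, whereas CHAC1, a target of the unfolded protein response, rose from 2.72 to 8.02 and 31.4 CPM. The list of 30 heat shock and unfolded protein genes had 15 higher and 12 lower (median log2 0.16 with and 0.02 without N1-ICD). Of 28 p53 targets 20 were higher and 7 lower (1.49 and 0.90), among them GDF15, a stress-induced cytokine, with 0.195, 6.95 and 88.0 CPM.

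Growth factor and matrix genes differed from the parent in both directions, and the counts that follow stand beside 43.4% higher and 42.7% lower over all genes. Of 45 receptor tyrosine kinases and EGF ligands 29 were higher and 14 lower than MB157 iEV, and EREG, an EGF family ligand, had 0 counts in MB157 iEV, 261, 263 and 295 CPM in MB157R iEV and 127, 128 and 123 CPM with N1-ICD. Of 33 integrins and laminins 22 were higher and 10 lower, with ITGB6 at 0 counts in MB157 iEV, 345 CPM in MB157R iEV and 164, 193 and 146 CPM with N1-ICD. For both genes N1-ICD lowered the level within MB157R by about the threshold fold (2.17-fold and 2.06-fold), and neither returned to 0. Of 37 collagens 19 were higher and 15 lower, of 34 Wnt genes 18 and 12, and of 42 TGF-beta, BMP and ID genes 27 and 12, the last including BMP7 with 77.9 CPM in MB157 iEV and 0 counts in all 6 MB157R libraries. AP-1 and immediate-early factors had 16 higher and 7 lower of 27, with FOSL1 at 2.45, 410.1 and 219 CPM. MHC class I genes had 17 higher and 4 lower of 23, and HLA-B, named after its values were seen, measured 97.3, 99.5 and 99.3, 78.2, 80.0 and 91.0 and 205, 218 and 207 CPM in MB157 iEV, MB157R iEV and MB157R iN1-ICD, above both groups only with N1-ICD. Cyclins and CDK inhibitors had 12 higher and 12 lower of 26, imprinted genes 11 and 12 of 25, and kallikreins 2 and 6 of 8.

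Markers of other cell types were at low summed levels. Fibroblast markers summed to 41.5 to 48.4 CPM in MB157 iEV and 167 to 174 CPM with N1-ICD, leukocyte markers to 37.5 to 40.9 and 83.1 to 89.8 CPM, neural markers to 144 to 153 and 71.5 to 80.5 CPM, and melanocyte markers to 21.6 to 24 and 13.6 to 14.9 CPM. Adipocyte markers summed to 1.74 to 2.34 CPM in MB157 iEV and 152 to 165 CPM with N1-ICD, of which LPL, a lipase, made up 157 CPM.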
